A study of Mus musculus with 25 samples.

Results

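The 10 genes described here carry out or control the making, conjugation and transport of bile acids in the liver: Cyp7a1, Cyp8b1, Cyp27a1, Cyp7b1, Nr0b2, Slc27a5, Baat, Abcb11, Slco1b2 and Slc10a1. They were chosen as a known pathway, and their array probes were found through the RefSeq accession that the scanner files give for each probe. All 10 were among the 15104 genes that passed the filter on dim probes, and they were measured by 12 probes. Liver RNA came from 25 female C57BL/6NcrSlc mice, 1 single-colour Agilent array per mouse, in 5 groups of 5 mice. The labels give no age. Mice of 4 groups first received concanavalin A (ConA) at 10 mg/kg, a lectin from jack beans whose stimulation of T cells brings on hepatitis. After 15 min they were given 1 mg/kg of BW245C, which activates the prostaglandin D2 receptor DP1, or vehicle. The groups were ConA + BW245C at 24 hr, ConA + vehicle at 24 hr, ConA + BW245C at 3 hr, ConA + vehicle at 3 hr, and untreated mice, which received neither the lectin nor an injection of vehicle as far as the labels say. BW245C was given only after ConA in these groups, and no group with BW245C alone was analysed here. The study asked what it changes in ConA hepatitis.

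Hepatocytes make bile acids from cholesterol by a neutral route, which starts with Cyp7a1 and uses Cyp8b1 to make cholic acid. An acidic route uses Cyp27a1 and then Cyp7b1. Slc27a5 and Baat then join bile acids to taurine or glycine, Abcb11 pumps them into bile, and Slc10a1 and the organic anion transporter Slco1b2 take up bile acids or other anions from portal blood. Nr0b2 (SHP) is a nuclear receptor without a DNA-binding domain that is induced by the bile acid receptor FXR and represses Cyp7a1 and Cyp8b1. Inflammation is known to lower many of these genes in liver.

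A level here is the log2 signal of a probe set against the 75th percentile on the same array, so 0 is the 75th percentile and levels of different probes are not set against each other. Log2 changes are differences of such levels with ± standard errors from limma, and calls were made at an adjusted p under 0.05, with the adjustment over all 15104 genes. Between 52.2% and 61.6% of the spots of an array were well above background, and 0 spots were saturated. Precision is limited by there being 5 arrays per group. All 11 measured hepatocyte markers, Alb among them, were well above background on all 25 arrays. The arrays lay on 5 slides entangled with the groups: all 5 ConA + BW245C arrays at 3 hr lay on slide 3. Slide 4 held 3 of ConA + BW245C and 4 of ConA + vehicle from 24 hr, while 4 of the 5 untreated arrays shared slide 1. The untreated mice served all 4 comparisons with ConA groups, which are therefore not independent of each other. The labels give no time for the untreated mice, so 3 hr and 24 hr name the time of the ConA group only. Those comparisons are not matched in time, and changes with time of day were not tested. In whole liver, fewer cells of a type and less RNA per cell cannot be told apart.

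The promoters of 2 members with large changes, the target gene Cyp8b1 and the repressor gene Nr0b2, are shown. Letters of the motifs bound by Nr5a2 (LRH-1) and Hnf4a, activators known to act on bile acid genes, were searched in 7 member promoters. The 2 shown were the only ones of these that held the Nr5a2 letters. Both are RefSeq sequences of GRCm38.p6 of 300 bases, most of them before the start of the gene, with motif matches in capitals. Cyp8b1 lies at chr9:121916256-121916555 on the minus strand and Nr0b2 at chr4:133553126-133553425 on the plus strand.

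Cyp8b1: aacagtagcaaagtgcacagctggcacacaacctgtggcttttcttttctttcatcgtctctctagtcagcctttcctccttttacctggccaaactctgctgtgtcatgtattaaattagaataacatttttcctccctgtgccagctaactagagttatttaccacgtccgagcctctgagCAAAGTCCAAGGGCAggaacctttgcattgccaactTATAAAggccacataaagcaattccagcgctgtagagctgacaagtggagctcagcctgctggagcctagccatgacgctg

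Nr0b2: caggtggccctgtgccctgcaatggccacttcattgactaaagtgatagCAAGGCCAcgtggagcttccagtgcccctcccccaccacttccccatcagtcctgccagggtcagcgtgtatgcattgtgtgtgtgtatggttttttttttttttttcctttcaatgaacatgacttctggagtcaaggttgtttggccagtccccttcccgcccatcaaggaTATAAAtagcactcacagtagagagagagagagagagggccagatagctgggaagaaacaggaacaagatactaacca

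In the Cyp8b1 promoter the run of capitals before the TATAAA box holds the Hnf4a letters CAAAGTCCA, which begin at position -67 from the gene's start. It also holds the Nr5a2 letters CAAGGNCA from -60, and both matches share 2 bases. In the Nr0b2 promoter the first capitals are a match to CAAGGNCA at -201, and the second are TATAAA at -28. Of 32851 mouse promoters of 300 bases, 6.71% held CAAGGNCA, 0.475% held CAAAGTCCA and 13.6% held TATAAA on either strand. Promoter sequences were at hand for 6 members, with 2 starts for Slc10a1, and among these 7 promoters CAAGGNCA was found in 2, CAAAGTCCA in 1, TATAAA in 4 and the FXR letters GGTCANTGA in 0. A match is a description of letters and not evidence of binding.

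At 24 hr after ConA, bile acid genes were low in livers that received vehicle, and less so in livers that received BW245C. In ConA + vehicle livers against untreated livers, 10 of 10 members were called lower at 24 hr, where 39.1% of all genes were called lower and 29.8% higher. The members' median log2 change was -2.45, beside -0.08 for all genes tested. In 10 of 10 members every ConA + vehicle array lay below every untreated array, as was so for 36.7% of all genes. With the slide as a fixed block 8 of 10 were called lower, since Nr0b2 and Slc10a1 did not pass. Of all genes, 4246 were called lower with that block and 5911 without it. In ConA + BW245C livers 9 of 10 members were called lower than in untreated livers at 24 hr, where 33.8% of all genes were called lower and 22.7% higher. The members' median was -1.37, beside -0.09 for all genes, and with the slide as a fixed block 7 were called lower. Of all genes, 3155 were called lower with that block and 5106 without it. Against ConA + vehicle, ConA + BW245C livers had 7 of 10 members called higher and 0 lower at 24 hr, where 17.6% of all genes were called higher and 8.95% lower. The members' median there was 1.20, beside 0.01 for all genes. In the same 7 members the arrays of both groups did not overlap, as in 12% of all genes with that direction. The 7 were Cyp7a1, Cyp8b1, Cyp27a1, Cyp7b1, Slc27a5, Abcb11 and Slco1b2.

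The early picture was different. At 3 hr, 4 of 10 members were called lower and 1 higher in ConA + vehicle livers than in untreated livers (37% and 25% of all genes). The same numbers of members were called in ConA + BW245C livers (42.3% of all genes lower and 27% higher). Between the ConA + BW245C and ConA + vehicle livers 1 member was called at 3 hr, Cyp7b1, which was lower, where 16.9% of all genes were called lower and 11.8% higher. Median log2 changes of the members at 3 hr were -0.21 with BW245C and -0.12 with vehicle against untreated livers, beside -0.18 and -0.09 for all genes. Between both ConA groups the median was 0.02, beside -0.04. The plot of each array shows the members' levels in the 5 groups.

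**Figure D1:**
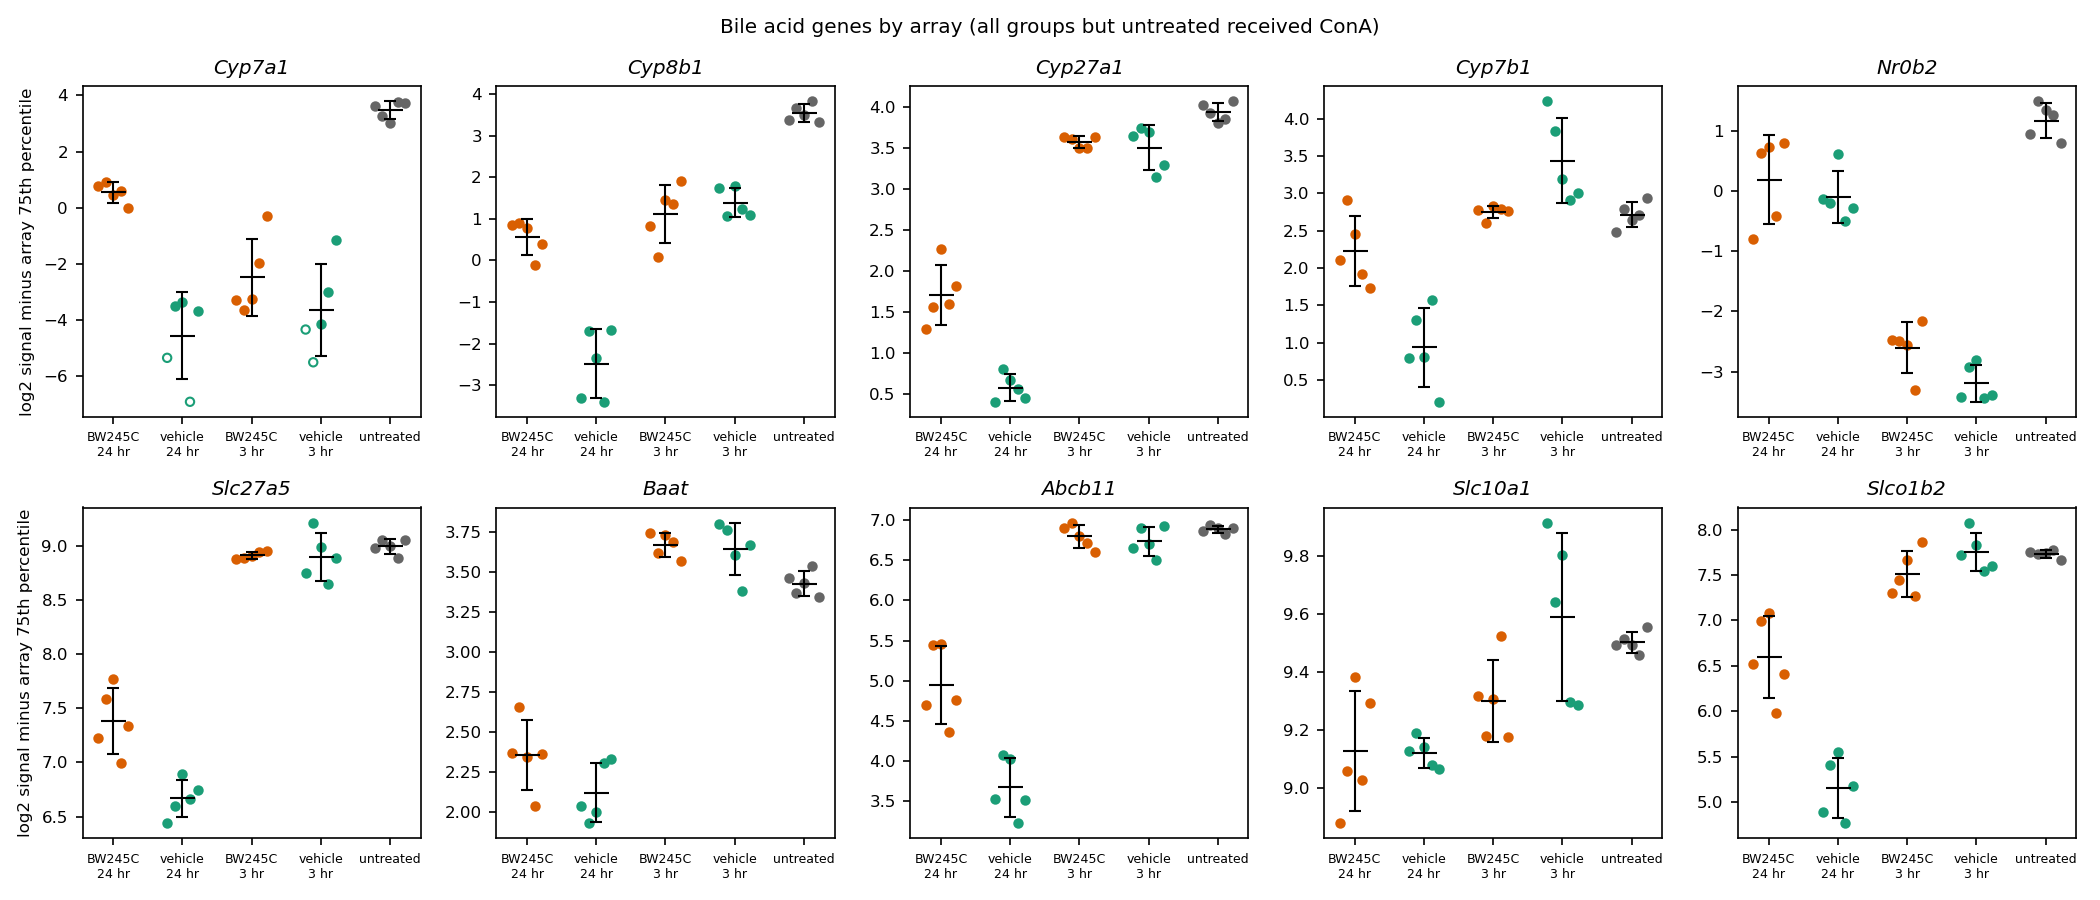
Levels (log2 signal minus the 75th percentile of the array) of the 10 genes on the 25 arrays, by group. Points are arrays, open points were not well above background, and bars are the mean ± SD of 5 mice; the vertical axes differ between genes. At 24 hr every BW245C point of Cyp7a1, Cyp8b1, Cyp27a1, Cyp7b1, Slc27a5, Abcb11 and Slco1b2 lies above every vehicle point.

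Cyp7a1, the rate-limiting cholesterol 7-alpha-hydroxylase of the neutral route (chromosome 4, 6265612 to 6275632 in GRCm38.p6), had the widest range. Its level at 24 hr was 0.78, 0.91, 0.46, 0.58 and -0.02 on the 5 ConA + BW245C arrays, against -5.35, -3.49, -3.35, -6.91 and -3.67 on the 5 ConA + vehicle arrays. At 3 hr it was -3.28, -3.63, -3.25, -1.96 and -0.28 with ConA + BW245C, against -4.34, -5.50, -4.15, -3.01 and -1.15 with ConA + vehicle. Untreated livers had 3.62, 3.28, 3.02, 3.75 and 3.73. The untreated arrays were thus above all others, the ConA + BW245C arrays at 24 hr came next without overlap, and the 3 remaining groups overlapped. The gene was not well above background on 2 ConA + vehicle arrays at 24 hr (replicates 1 and 4) and on 2 at 3 hr (replicates 1 and 2), so these values have no order among themselves.

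At 24 hr Cyp7a1 was higher with ConA + BW245C than with ConA + vehicle, with a fitted log2 difference of 5.10 ± 0.71 (adjusted p = 3.11e-05). That size includes 2 dim ConA + vehicle arrays. With those raised to the lowest signal well above background on each, the log2 difference was 4.65. This is not a strict bound, since a dim spot can lie above that signal. Against untreated livers Cyp7a1 was 7.66-fold lower with ConA + BW245C (log2 -2.94 ± 0.71, adjusted p = 0.00125). With ConA + vehicle the dim arrays raised in the same way gave a log2 change of -7.58 for the gene. At 3 hr it was 62.3-fold lower than untreated with ConA + BW245C (adjusted p = 1.71e-07). The log2 difference between the ConA groups was 1.15 with a 95% interval of -0.33 to 2.63, which did not pass (adjusted p = 0.231). That difference at 3 hr was -0.40 within slide 3, where 5 ConA + BW245C arrays stood beside 2 of ConA + vehicle, and 1.77 without ConA + vehicle replicate 5 (adjusted p = 0.0423), so 1 array decided its call. This difference includes 2 dim ConA + vehicle arrays. It was 0.92 with replicate 2 raised, while replicate 1 already lay above the lowest signal well above background (-4.51). Between times, Cyp7a1 was 8.13-fold higher at 24 hr than at 3 hr with BW245C (adjusted p = 0.000703), and with vehicle the log2 difference of -0.92 did not pass (adjusted p = 0.259). That difference has dim arrays on both sides and gives no measured size.

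Cyp8b1, the sterol 12-alpha-hydroxylase that directs synthesis to cholic acid (chromosome 9, 121914356 to 121916305), followed a like order at 24 hr but started from a smaller early change. At 24 hr its level was 0.86, 0.89, 0.78, -0.12 and 0.40 with ConA + BW245C, against -3.31, -1.69, -2.34, -3.40 and -1.69 with ConA + vehicle. At 3 hr it was 0.83, 0.09, 1.45, 1.36 and 1.91 with ConA + BW245C, against 1.75, 1.07, 1.80, 1.23 and 1.10 with ConA + vehicle. Untreated livers had 3.37, 3.68, 3.50, 3.84 and 3.33. Both ConA groups overlapped at 3 hr and were apart at 24 hr, where the ConA + vehicle arrays were the lowest of all. The gene was 8.27-fold higher with ConA + BW245C than with ConA + vehicle at 24 hr (log2 3.05 ± 0.33, adjusted p = 4.07e-06), and the difference was 2.82 within slide 4, which held 3 and 4 arrays of these groups. At 3 hr that log2 difference was -0.26 (95% interval -0.95 to 0.42, adjusted p = 0.58). Cyp8b1 was 5.34-fold lower than untreated with ConA + BW245C at 3 hr (adjusted p = 1.28e-06) and 4.44-fold lower with ConA + vehicle (adjusted p = 5.55e-06). From this level it was another 14.7-fold lower at 24 hr than at 3 hr with vehicle (adjusted p = 4.58e-10). With BW245C the log2 difference between the times was -0.57 ± 0.33 and did not pass (adjusted p = 0.132, and 0.0265 without ConA + BW245C 3 hr replicate 2).

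Cyp27a1, the mitochondrial sterol 27-hydroxylase of the acidic route (chromosome 1, 74713148 to 74737897), changed little at 3 hr and much at 24 hr. At 24 hr its level was 1.29, 1.56, 2.27, 1.60 and 1.82 with ConA + BW245C, against 0.40, 0.81, 0.67, 0.56 and 0.45 with ConA + vehicle. In untreated livers it was 4.02, 3.93, 3.81, 3.86 and 4.07. The 3 groups did not overlap. The ConA + BW245C livers were 2.19-fold above the ConA + vehicle livers (log2 1.13 ± 0.14, adjusted p = 1.05e-05) and 4.69-fold below untreated livers (adjusted p = 9.65e-12). The ConA + vehicle livers were 10.3-fold below untreated livers (adjusted p = 6.02e-15). At 3 hr the levels lay between 3.50 and 3.64 with ConA + BW245C and between 3.14 and 3.74 with ConA + vehicle. The log2 changes from untreated at 3 hr were -0.36 (adjusted p = 0.0268) and -0.43 (adjusted p = 0.0103), both called. Neither call held with the slide as a fixed block, which gave 0.23 (adjusted p = 0.261) with BW245C and -0.20 (adjusted p = 0.147) with vehicle. The call with BW245C was also lost without replicate 3 or 4 of that group or replicate 1 or 5 of the untreated group (adjusted p from 0.0517 to 0.0620). The difference of 0.07 between the ConA groups at 3 hr was not called, but was 0.43 with the slide as a fixed block (adjusted p = 0.0153).

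Cyp7b1, the oxysterol 7-alpha-hydroxylase that follows Cyp27a1 (chromosome 3, 18071944 to 18243890), moved the other way early. At 3 hr its level was 2.77, 2.61, 2.83, 2.79 and 2.76 with ConA + BW245C, against 4.24, 3.84, 3.20, 2.92 and 3.01 with ConA + vehicle. Untreated livers had 2.49, 2.79, 2.64, 2.71 and 2.94. The ConA + BW245C arrays lay within the range of the untreated arrays, and the ConA + vehicle arrays were spread widely, with 4 of 5 above every untreated array and replicate 4 just below the highest of them. The ConA + vehicle livers were 1.65-fold above untreated livers at 3 hr (log2 0.73 ± 0.25, adjusted p = 0.015, and 0.0602 without ConA + vehicle replicate 1). The ConA + BW245C livers differed from untreated by 0.04 ± 0.25. The ConA + BW245C livers were 1.61-fold below the ConA + vehicle livers (log2 -0.69 ± 0.25, adjusted p = 0.0423). This last call rests on few arrays: within slide 3 the difference was -0.21, with the slide as a fixed block -0.30 (adjusted p = 0.532), and without ConA + vehicle replicate 1 it was -0.49 (adjusted p = 0.148). It was also lost without replicate 2 of ConA + vehicle and without each of the 5 ConA + BW245C arrays in turn, at values from -0.71 to -0.59.

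At 24 hr Cyp7b1 had levels of 2.11, 2.92, 2.45, 1.92 and 1.73 with ConA + BW245C, against 0.79, 1.31, 0.81, 1.58 and 0.21 with ConA + vehicle. The groups did not overlap, and the ConA + BW245C livers were 2.44-fold higher (log2 1.29 ± 0.25, adjusted p = 0.00065). Against untreated livers the ConA + BW245C livers had a log2 change of -0.49 ± 0.25, which did not pass (adjusted p = 0.101, and 0.0271 without replicate 2 of that group), and it was the 1 member of 10 not called there. The ConA + vehicle livers were 3.42-fold below untreated livers at 24 hr (adjusted p = 1.25e-06).

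**Figure D2:**
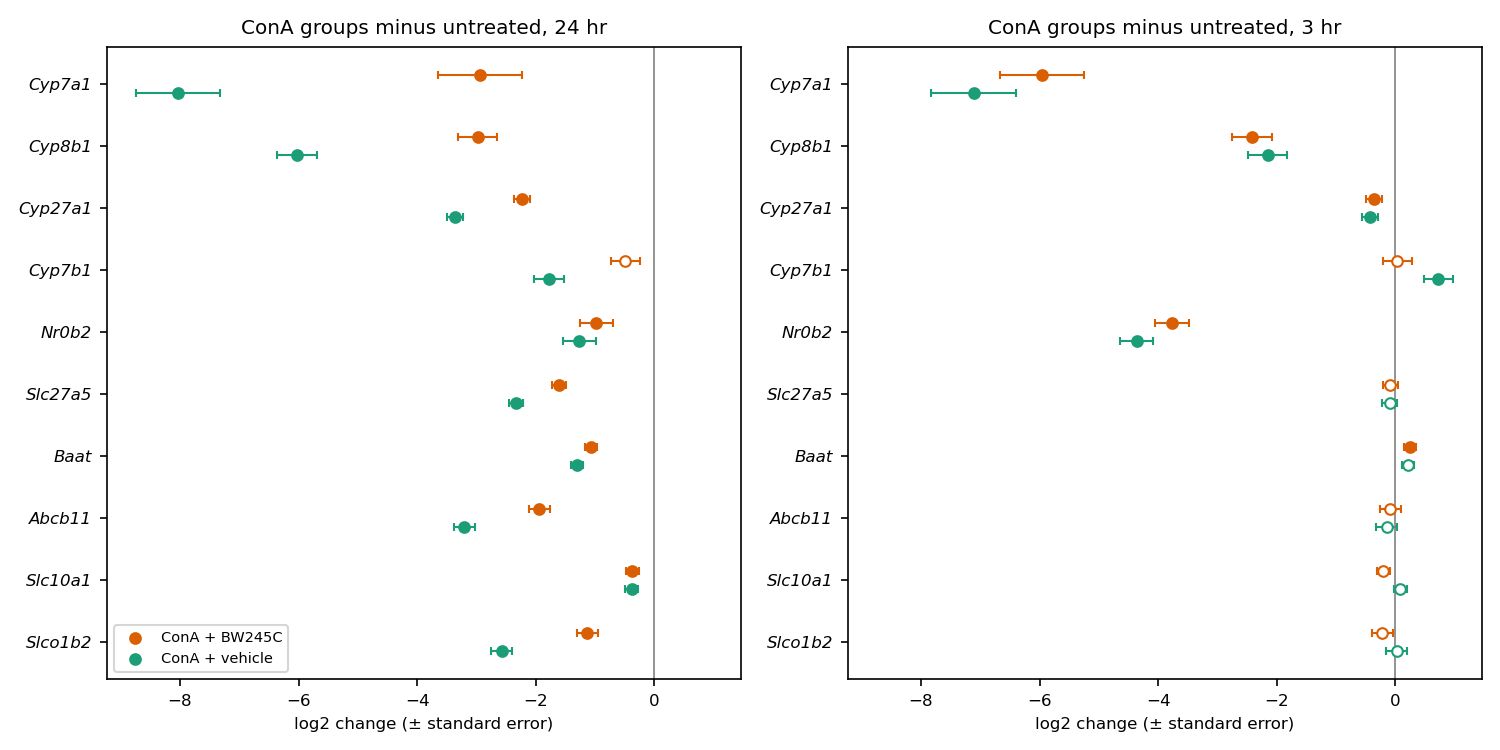
Log2 change from untreated livers of the 10 genes at 24 hr and at 3 hr with ConA + BW245C and with ConA + vehicle; points are differences of group means of 5 arrays, bars are standard errors, and open points did not pass an adjusted p under 0.05. Cyp7a1, Cyp8b1 and Nr0b2 lie far below 0 at 3 hr, and at 24 hr all points lie below 0.

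Nr0b2, the repressor (chromosome 4, 133553376 to 133556686), was low early and closer to untreated at 24 hr in both ConA groups, the reverse of most members. At 3 hr its level was -2.48, -2.50, -2.56, -3.30 and -2.17 with ConA + BW245C, against -3.43, -2.92, -2.81, -3.44 and -3.38 with ConA + vehicle. At 24 hr it was -0.80, 0.63, 0.73, -0.42 and 0.79 with ConA + BW245C, against -0.14, -0.20, 0.62, -0.51 and -0.29 with ConA + vehicle. Untreated livers had 0.94, 1.49, 1.33, 1.26 and 0.79. All 10 ConA arrays at 3 hr were below all 15 others. It was 13.6-fold lower than untreated with ConA + BW245C at 3 hr (log2 -3.77 ± 0.28, adjusted p = 7.38e-11) and 20.5-fold lower with ConA + vehicle (log2 -4.36 ± 0.28, adjusted p = 4.17e-12). At 24 hr it was 6.91-fold above its 3 hr level with BW245C (adjusted p = 9.19e-09) and 8.53-fold above it with vehicle (adjusted p = 1.12e-09). Its log2 change from untreated at 24 hr was still -0.98 with BW245C (adjusted p = 0.00479) and -1.27 with vehicle (adjusted p = 0.000343). With the slide as a fixed block these were -0.68 (adjusted p = 0.277) and -0.67 (adjusted p = 0.259). No difference between BW245C and vehicle was called for Nr0b2: it was 0.29 at 24 hr (95% interval -0.29 to 0.87) and 0.60 at 3 hr (0.02 to 1.17, adjusted p = 0.111, and 0.0465 without ConA + BW245C replicate 4). Cyp7a1 and Cyp8b1, genes this receptor is known to repress, were also low at 3 hr in the same livers. A link between Nr0b2 and these genes was not tested.

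Slc27a5, the bile acid CoA ligase that prepares bile acids for conjugation (chromosome 7, 12988346 to 12998192), fell at 24 hr and differed with BW245C. Baat, the transferase that adds the amino acid (chromosome 4, 49489416 to 49507915), fell too. The level of Slc27a5 at 24 hr was 7.22, 7.58, 7.77, 6.99 and 7.34 with ConA + BW245C, against 6.44, 6.60, 6.90, 6.66 and 6.74 with ConA + vehicle. Untreated livers lay between 8.89 and 9.06. It was 1.64-fold higher with ConA + BW245C than with ConA + vehicle (log2 0.71 ± 0.12, adjusted p = 0.000163, and 0.54 within slide 4), and its 2 probes gave like values. Against untreated livers it was 3.06-fold lower with ConA + BW245C (adjusted p = 1.33e-10) and 5.02-fold lower with ConA + vehicle (adjusted p = 1.22e-13). At 3 hr its log2 changes from untreated were -0.08 and -0.10, and neither passed (adjusted p = 0.554 and 0.488).

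Baat had levels of 2.37, 2.65, 2.34, 2.04 and 2.36 with ConA + BW245C at 24 hr, against 2.03, 1.93, 2.00, 2.30 and 2.33 with ConA + vehicle. Untreated livers lay between 3.34 and 3.53. The 2 ConA groups overlapped and both were below all untreated arrays. It was 2.10-fold lower than untreated with ConA + BW245C (adjusted p = 6.47e-09) and 2.47-fold lower with ConA + vehicle (adjusted p = 9.68e-11). The log2 difference of 0.23 ± 0.10 between the ConA groups did not pass (adjusted p = 0.0945, but 0.0208 without ConA + BW245C replicate 4 and 0.0487 without ConA + vehicle replicate 5). At 3 hr Baat was 1.18-fold above untreated with ConA + BW245C (log2 0.24 ± 0.10, adjusted p = 0.0382). This call was lost without any 1 of 6 arrays, replicates 1, 3 and 4 of that group and 2, 3 and 5 of the untreated group (adjusted p from 0.0571 to 0.0805), and lost with the replicate number as a block (adjusted p = 0.0554). With ConA + vehicle the log2 change of Baat at 3 hr was 0.22 and did not pass (adjusted p = 0.0691), a result that changed in 3 fits without 1 mouse. The ConA groups differed by 0.03 at 3 hr (adjusted p = 0.869).

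Abcb11, the bile salt export pump of the canalicular membrane (chromosome 2, 69238282 to 69342616), did not pass at 3 hr and was low at 24 hr. At 24 hr its level was 4.70, 5.45, 5.46, 4.36 and 4.76 with ConA + BW245C, against 3.52, 4.08, 4.02, 3.23 and 3.52 with ConA + vehicle. Untreated livers had 6.86, 6.94, 6.90, 6.82 and 6.90. The lowest ConA + BW245C array was above the highest ConA + vehicle array, and both groups were below the untreated arrays. Abcb11 was 2.41-fold higher with ConA + BW245C than with ConA + vehicle (log2 1.27 ± 0.18, adjusted p = 3.14e-05), and 1.12 on the log2 scale within slide 4. It was 3.83-fold lower than untreated with ConA + BW245C (adjusted p = 3.83e-09) and 9.25-fold lower with ConA + vehicle (adjusted p = 3.96e-13). At 3 hr its log2 changes from untreated were -0.08 ± 0.18 with ConA + BW245C and -0.15 ± 0.18 with ConA + vehicle.

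Slco1b2, the mouse sinusoidal uptake transporter of organic anions (chromosome 6, 141629452 to 141686646), had a like pattern. Its level at 24 hr was 6.53, 6.99, 7.08, 5.98 and 6.41 with ConA + BW245C, against 4.90, 5.41, 5.55, 4.77 and 5.18 with ConA + vehicle, and 7.75, 7.73, 7.74, 7.77 and 7.67 in untreated livers. The 3 groups were apart, with ConA + BW245C in the middle. The difference between ConA + BW245C and ConA + vehicle was 2.71-fold (log2 1.44 ± 0.18, adjusted p = 1.03e-05, and 1.27 within slide 4). Against untreated livers Slco1b2 was 2.19-fold lower with ConA + BW245C (adjusted p = 9.7e-06) and 5.94-fold lower with ConA + vehicle (adjusted p = 1.19e-11). Among the ConA + BW245C mice at 24 hr, replicate 4 had the lowest level of Abcb11, Slco1b2, Slc27a5, Baat and Cyp8b1. Among the ConA + vehicle mice replicate 4 had the lowest level of Cyp8b1, Abcb11 and Slco1b2.

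Slc10a1 (NTCP), the sodium-dependent bile acid uptake transporter (chromosome 12, 80953185 to 80968705), was measured by 2 probes that disagreed. The brighter probe, which stood for the gene in the counts, had levels from 8.88 to 9.38 with ConA + BW245C at 24 hr, from 9.07 to 9.19 with ConA + vehicle at 24 hr, and from 9.46 to 9.55 in untreated livers. Its log2 changes from untreated at 24 hr were -0.37 (adjusted p = 0.00651) with ConA + BW245C and -0.38 (adjusted p = 0.00429) with ConA + vehicle. The difference between these groups was 0.01 ± 0.11. Neither call held with quantile normalization, with the series matrix values or with the slide as a block. With vehicle the sign turned to 0.17 with quantile normalization and 0.070 with the slide as a fixed block.

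The dimmer probe of Slc10a1 had levels of 3.36, 3.65, 3.74, 2.71 and 3.24 with ConA + BW245C at 24 hr, against 1.48, 2.09, 2.07, 1.47 and 2.07 with ConA + vehicle. At 3 hr it lay between 4.76 and 5.16 with ConA + BW245C and between 4.84 and 5.08 with ConA + vehicle. Untreated livers had 5.62, 5.83, 5.88, 5.77 and 5.61. These arrays order as those of Abcb11 and Slco1b2 do at 24 hr, with ConA + BW245C between ConA + vehicle and untreated and no overlap. In a fit over all 33504 kept probes, this probe was 2.84-fold higher with ConA + BW245C than with ConA + vehicle at 24 hr (adjusted p = 6.34e-06). Its log2 change from untreated was -2.40 with ConA + BW245C and -3.91 with ConA + vehicle (adjusted p = 1.08e-14). At 3 hr its changes from untreated were -0.77 (adjusted p = 0.000268) and -0.74 (adjusted p = 0.000431), where those of the brighter probe were -0.20 and 0.09 and did not pass. Signals ranged from 173410 to 273391 for the brighter probe and from 1215 to 20482 for the dimmer one, and both carry the same RefSeq accession. Which of them measures the transcript was not tested, so no direction of Slc10a1 under BW245C is given. The counts of members depend on this choice. By the dimmer probe, Slc10a1 would join the members called higher with ConA + BW245C than with ConA + vehicle at 24 hr. It would also join those called lower than untreated at 3 hr in both ConA groups.

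**Figure D3:**
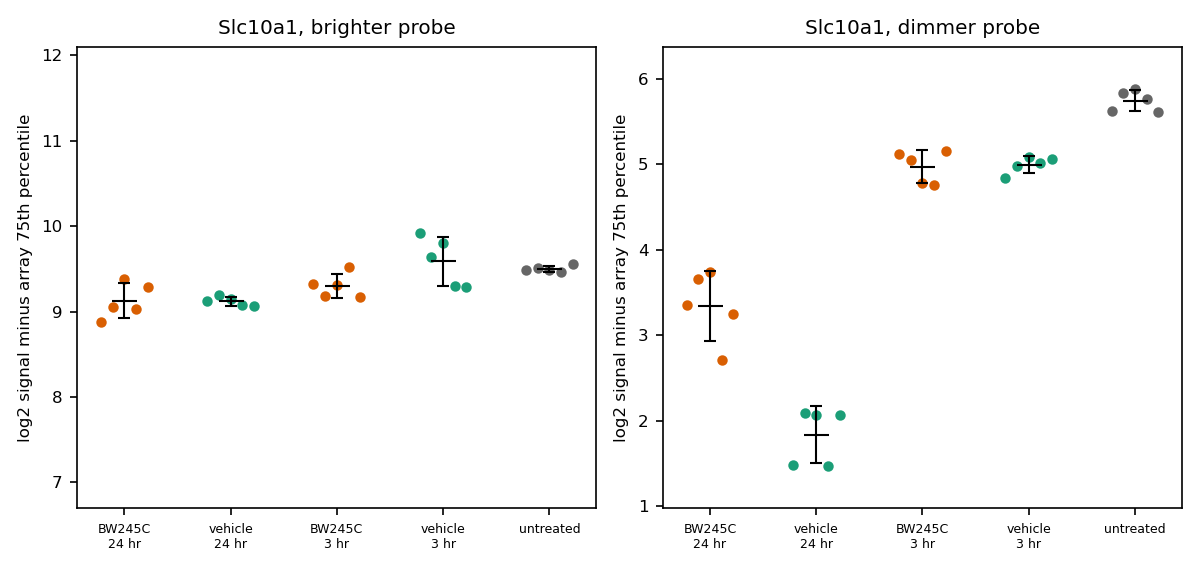
Levels (log2 signal minus the 75th percentile of the array) of the 2 probes of Slc10a1 on the 25 arrays, by group, on vertical axes of equal span. Points are arrays and bars are the mean ± SD of 5 mice. The brighter probe stays between 8.88 and 9.92, and the dimmer probe is lowest with ConA + vehicle at 24 hr, between 1.47 and 2.09.

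Between 3 and 24 hr the ConA groups took different courses. With vehicle, 8 of 10 members were called lower at 24 hr than at 3 hr and 1 higher, Nr0b2, with 35.3% of all genes called lower and 33.2% higher. The members' median log2 difference was -2.37, beside -0.03 for all genes. With BW245C, 5 members were called lower at 24 hr than at 3 hr and 2 higher, Cyp7a1 and Nr0b2, with 34.3% of all genes called lower and 35.8% higher. The members' median was -0.74, where that of all genes rounded to 0. The interaction, which is the difference between ConA + BW245C and ConA + vehicle at 24 hr minus that at 3 hr, was called positive in 7 of 10 members and negative in 0, with 19.3% of all genes called positive and 10.8% negative. Its median was 1.13 over the members and 0.10 over all genes. It was called for the same 7 genes as the difference at 24 hr, and with the slide as a fixed block for 4 of them, since Abcb11 (1.05, adjusted p = 0.0618), Cyp27a1 (0.51, adjusted p = 0.0584) and Slc27a5 (0.41, adjusted p = 0.219) did not pass. Of all genes, 505 were called positive with that block and 2908 without it.

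**Figure D4:**
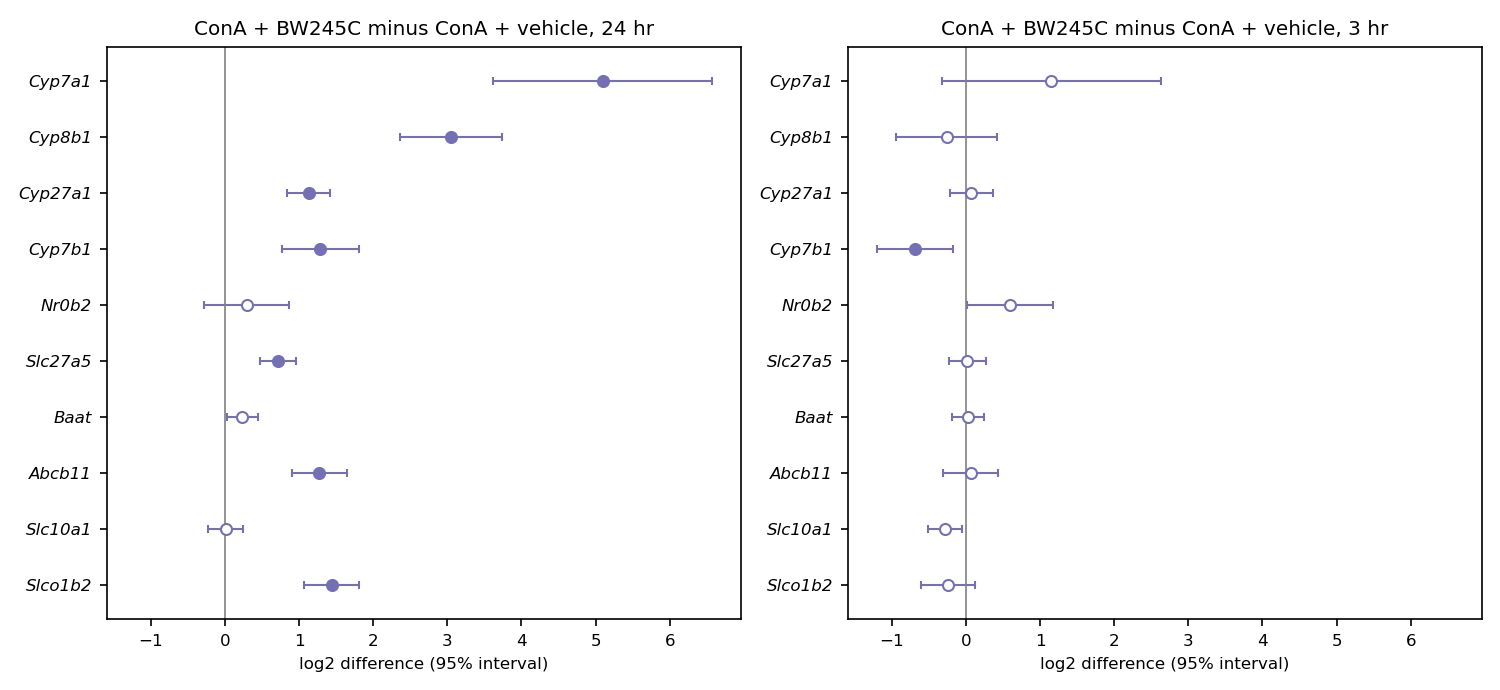
Log2 difference between ConA + BW245C and ConA + vehicle livers at 24 hr and at 3 hr for the 10 genes, with 95% intervals from the limma fit (5 arrays a group); filled points passed an adjusted p under 0.05. At 24 hr 7 points are filled and lie above 0, from 0.71 for Slc27a5 to 5.10 for Cyp7a1, whose size includes 2 dim vehicle arrays, and at 3 hr Cyp7b1 is filled at -0.69.

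The direction of the calls over all genes depended on the scaling. With the series matrix values, the median of all genes shifted by 0.34 on the log2 scale for ConA + vehicle against untreated at 24 hr, by 0.23 for ConA + BW245C against untreated at 24 hr and by -0.11 for ConA + BW245C against ConA + vehicle at 24 hr. Of all called genes, 65.7% were then higher with ConA + vehicle than in untreated livers at 24 hr (43.2% with the scaling used above). Likewise 63.4% were higher with ConA + BW245C than in untreated livers (40.2%), and 42.8% were higher with ConA + BW245C than with ConA + vehicle (66.3%). At 3 hr 62.1% of called genes were higher with ConA + BW245C than with ConA + vehicle (41.1%). At 24 hr against 3 hr the share was 66.5% with BW245C (51.1%) and 74.1% with vehicle (48.5%), and for the interaction 32.0% (64.1%). Under those values 7 members were still called higher with ConA + BW245C than with ConA + vehicle at 24 hr and 0 lower. Of all genes, 1957 were called higher there and 2615 lower. Of the 10, 9 were called lower with ConA + vehicle than in untreated livers at 24 hr, Slc10a1 being the exception at -0.04. In that comparison 3783 of all genes were called lower and 7249 higher.

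Other genes of the pathway, in lists of synthesis enzymes, transporters, regulators and detoxification genes, moved mostly as the members did. Of 52 measured, 45 were called lower and 3 higher with ConA + vehicle than in untreated livers at 24 hr, beside 39.1% and 29.8% of all genes. With ConA + BW245C 39 were lower and 2 higher than in untreated livers, beside 33.8% and 22.7% of all genes. Between ConA + BW245C and ConA + vehicle at 24 hr 32 were called higher and 3 lower, beside 17.6% and 8.95% of all genes, with a median log2 difference of 0.52. At 3 hr 7 were called higher and 7 lower between these groups, which is near the 11.8% and 16.9% of all genes.

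Among 13 other synthesis enzymes at 24 hr, 9 were called higher and 1 lower with ConA + BW245C than with ConA + vehicle (17.6% and 8.95% of all genes). Akr1d1, the steroid 5-beta-reductase shared by both routes, was 2.26 higher on the log2 scale, and Akr1c6, a hydroxysteroid dehydrogenase, 2.20 higher. Against untreated livers at 24 hr Akr1d1 was -2.34 with ConA + BW245C and -4.60 with ConA + vehicle, and Akr1c6 was -1.44 and -3.64 with the same treatments. The exception was Ch25h, the cholesterol 25-hydroxylase, whose product is an oxysterol made by activated macrophages as well. Ch25h was well above background on 20 of 20 ConA arrays and on 0 of 5 untreated arrays. With dim untreated arrays raised as for Cyp7a1, Ch25h was 90.7-fold above untreated with ConA + BW245C and 217-fold with ConA + vehicle at 24 hr. These folds have no measured untreated level. It was lower with ConA + BW245C than with ConA + vehicle, by -1.26 on the log2 scale at 24 hr and -1.49 at 3 hr.

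Among 16 other transporters, 10 were called higher and 2 lower with ConA + BW245C than with ConA + vehicle at 24 hr (17.6% and 8.95% of all genes). The sinusoidal anion transporters Slco1a1 and Slco1a4 were higher by 1.75 and 1.66 on the log2 scale, after changes from untreated of -1.83 and -2.71 with ConA + BW245C and of -3.57 and -4.37 with ConA + vehicle. The 2 lower genes both belong to efflux: Slc51b, a subunit of the basolateral bile acid exporter, at -1.20, and Abcb1b, a multidrug efflux pump, at -0.67. Slc51b was above untreated at 24 hr with ConA + vehicle (1.12) and had a log2 change of -0.08, not called, with ConA + BW245C. Abcb1b was above untreated with both, at 1.09 with ConA + BW245C and 1.77 with ConA + vehicle. Abcc3, another basolateral exporter, had a difference of 0.31 between the ConA groups at 24 hr, which did not pass.

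Among 17 regulators, 10 were called higher and 0 lower with ConA + BW245C than with ConA + vehicle at 24 hr (17.6% and 8.95% of all genes). Klb, the co-receptor for the gut hormone that restrains Cyp7a1, was higher by 1.44 on the log2 scale, Nr1i3 (CAR) by 1.15 and Nr1h4, which encodes FXR, by 0.75. Fgfr4, the receptor that works with Klb, was higher by 0.67 and Nr5a2 by 0.47, and Hnf4a was at 0.23 and did not pass. Against untreated livers at 24 hr, Klb was at -1.13 with ConA + BW245C and -2.57 with ConA + vehicle, and Nr1h4 at -0.68 and -1.43 with the same treatments. At 3 hr Nr5a2 was above untreated in both groups, at 0.65 with ConA + BW245C and 1.27 with ConA + vehicle, while Hnf4a was at 0.31 with ConA + BW245C and -0.26 with ConA + vehicle, all called. Among 6 detoxification genes 3 were called higher with ConA + BW245C than with ConA + vehicle at 24 hr and 0 lower, beside the same shares of all genes. They were Ugt2b1, a glucuronosyltransferase, at 1.47, Cyp3a11, a hydroxylase of bile acids and drugs, at 1.04, and Cyp3a13 at 0.31.

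**Figure D5:**
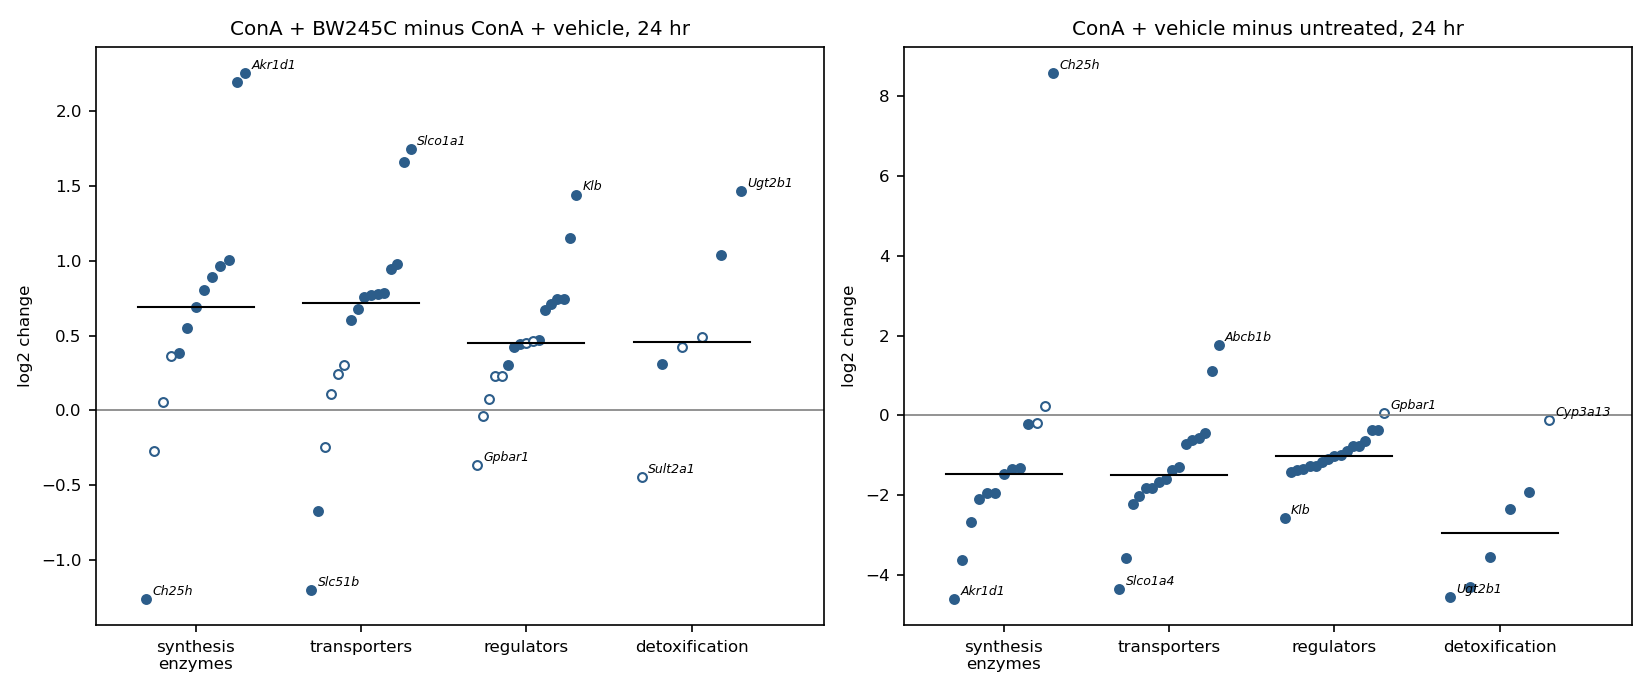
Log2 changes at 24 hr of 52 other bile acid genes in 4 lists, between ConA + BW245C and ConA + vehicle livers and between ConA + vehicle and untreated livers. Points are genes, filled where the adjusted p was under 0.05, lines are list medians, and the lowest and highest gene of each list is named. Ch25h, Slc51b and Abcb1b run against most genes of their lists in both panels. Of the last 2, Slc51b is named only in the panel between the ConA groups and Abcb1b only in the panel against untreated.

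Markers of some liver cell types, not all, also differed between the ConA groups at 24 hr. Their part in the results above was not tested. Of 11 hepatocyte markers, 6 were called higher and 0 lower with ConA + BW245C than with ConA + vehicle, beside 17.6% and 8.95% of all genes. The markers' median was 0.49. The called markers ran from 0.49 for Apoa2 to 1.10 for Hpd and 1.23 for Ttc36, and those not called from 0.06 for Fgb to 0.43 for Apob, with Alb at 0.19. Against untreated livers 10 markers were called lower and 1 higher with ConA + vehicle, beside 39.1% and 29.8% of all genes. The markers' median was -1.04. Their summed level lay between 12.40 and 12.81 with ConA + BW245C, between 12.19 and 12.60 with ConA + vehicle and between 12.90 and 13.11 in untreated livers. Of 6 neutrophil markers, 5 were called lower with ConA + BW245C than with ConA + vehicle at 24 hr, beside 8.95% of all genes. The markers' median was -1.73. The summed level of the neutrophil markers lay between 7.03 and 7.70 with ConA + BW245C and between 8.02 and 8.61 with ConA + vehicle. In untreated livers it lay between 6.79 and 6.99. Such sums are set mostly by the brightest probes. Marker by marker, 5 of 6 were called higher than untreated in both ConA groups, beside 22.7% (BW245C) and 29.8% (vehicle) of all genes. Median log2 changes were 4.73 with ConA + BW245C and 6.94 with ConA + vehicle. The 1 other marker was at -0.27 (called) and -0.10 (not called). Between ConA + BW245C and ConA + vehicle at 24 hr, 3 of 6 stellate cell markers, 2 of 6 sinusoidal endothelial markers and 1 of 6 Kupffer cell markers were called higher by limma. None of these lists had a marker called lower. The Kupffer cell count is near the 17.6% of all genes called higher, and each list is short. Of 6 T and NK cell markers and 7 cholangiocyte markers, 0 and 0 were called between the ConA groups in the limma fit, with medians of -0.12 and -0.33, and 0 and 2 had an unadjusted p under 0.05. With ConA + vehicle against untreated livers at 24 hr, 5 of 6 Kupffer cell markers and 5 of 6 stellate cell markers were called lower, with medians of -2.26 and -1.96, as were 4 of 6 sinusoidal endothelial markers, with 1 higher. In the same comparison 5 of 6 T and NK cell markers and 2 of 7 cholangiocyte markers were called higher and 0 lower. Of all genes, 39.1% were called lower there and 29.8% higher, so the cholangiocyte count of higher markers is near the share of all genes.

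Over the 25 arrays, the members did not all share 1 pattern. The Pearson r of a member with the mean of the other members, Cyp7a1 left out of the mean since it was not measured on every array, was 0.97 for Cyp27a1, 0.96 for Abcb11, Slc27a5 and Slco1b2, 0.89 for Cyp8b1, 0.86 for Baat, 0.82 for Cyp7b1, 0.69 for Slc10a1, 0.44 for Cyp7a1 and -0.33 for Nr0b2. These values describe the arrays, which share slides and groups, and carry no test. Of all other genes, Tmbim6 (r = 0.99), Tmprss6 (0.99), Tm2d2 (0.99), Hpn (0.99) and Tmem59 (0.99) had patterns most like the mean of the 9 members measured on all arrays. Olfr1229 (-0.98), Mt4 (-0.97) and Mmp7 (-0.96) ran most against it. In untreated livers Mt4 and Mmp7 had mean levels of -4.12 and -4.28, near the lowest signals well above background on those arrays (-4.83 to -4.35). Hepsin, encoded by Hpn, and the protease encoded by Tmprss6 are known from hepatocytes. The other genes most like the mean were not assigned to a cell type. Tmprss6 had mean levels of 5.84 with ConA + BW245C and 5.09 with ConA + vehicle at 24 hr and 7.16 in untreated livers. Cyp7a1 was most like Slc40a1 (0.92), which encodes the iron exporter ferroportin, Nexn (0.92) and Aqp11 (0.91). Nr0b2 was most like Pnpla6 (0.98), Cyp2d37-ps (0.98) and Rnf215 (0.98).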

How the data were processed

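Liver RNA of 25 mice was measured on 25 arrays, and the members and gene lists were chosen with earlier results of these data known. Per the file headers, the deposited Cy3 intensity values were made with Agilent Feature Extraction 10.7.3.1 (9.1 in the submitters' processing notes), with background subtraction and spatial detrending and no scaling across arrays; the probe design names the mm9 build. Per the labels' protocols, 0.5 ug of RNA was labelled. In the deposited series matrix each array's intensity is multiplied by a constant, and how it was set is not given in the sources used here.

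Control spots and spots flagged as outliers (0.157% to 0.324% per array) were left out. The log2 processed signal, less the array's 75th percentile, was averaged over the spots of a probe. Of 55681 probes, 33504 were well above background on at least 5 of 25 arrays, and a gene took its brightest probe, named through RefSeq accessions (15104 genes). In R 4.3.3, limma 3.58.1 estimated each group's mean from the 25 arrays together, with Benjamini-Hochberg adjustment over the genes of each of 9 comparisons, after the steps had been tested on simulated data. Tables were handled with jsonlite 2.0.0 and data.table (version 1.17.8). Figures used matplotlib 3.10.9, pandas 2.3.3 and numpy 2.4.6 under Python 3.11.15. P-values rest on the spread between mice within groups, pooled by limma over the 5 groups. That spread was not equal: the SD of Cyp7a1 was 0.32 in untreated livers and 1.64 with ConA + vehicle at 3 hr.

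All 10 members were named, with at most the 3 genes of each other list that changed most, 6 fixed genes (Nr1h4, Nr5a2, Hnf4a, Fgfr4, Klb and Abcc3), and the genes most like the members by Pearson r. The hepatocyte markers named (Alb, Apoa2, Apob, Fgb, Hpd and Ttc36) and the baseline values of named genes were chosen after their values were seen. Slc51a, Fgf15, Ugt1a1, Tf, Ly6g and Ncr1 were listed and not measured. Same-number replicates did not deviate together (median r = -0.01 over 50 pairs, and the best match shared the number for 4 of 25 arrays), and 0 pairs of arrays were identical. Alternatives were normexp background on the median signal (offset 50), quantile normalization, a replicate block, the slide as a block (fixed or random) or values within slides, a filter on all 25 arrays, no filter, only the groups compared, the series matrix values, the mean of a gene's probes and leaving out each mouse. The dimmer probe of Slc10a1 and Slc27a5 was added after the data were seen.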

Additional observations from a re-analysis of the deposited data

Results flagged for a closer look

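For 7 genes the difference between ConA + BW245C and ConA + vehicle was not the same at 24 hr as at 3 hr by the test of the interaction in the limma fit over 25 arrays. The interaction, on the log2 scale, was 3.95 ± 1.01 (SE) for Cyp7a1 (adjusted p = 0.00692), 3.31 ± 0.47 for Cyp8b1 (adjusted p = 8.84e-05) and 1.98 ± 0.35 for Cyp7b1 (adjusted p = 0.000572). It was 1.69 ± 0.25 for Slco1b2 (adjusted p = 0.000122), 1.21 ± 0.25 for Abcb11 (adjusted p = 0.00179), 1.06 ± 0.20 for Cyp27a1 (adjusted p = 0.00079) and 0.70 ± 0.17 for Slc27a5 (adjusted p = 0.00503). For Cyp7b1 the difference was 1.29 at 24 hr and -0.69 at 3 hr, and the 3 hr value was -0.30 with the slide as a fixed block (adjusted p = 0.532). The interaction of Cyp7a1 includes ConA + vehicle arrays not well above background at both times. All 5 ConA + BW245C arrays at 3 hr lay on a slide with 2 ConA + vehicle arrays of that time. With the slide as a fixed block the call was kept for Cyp7a1, Cyp8b1, Cyp7b1 and Slco1b2. Of all genes, 505 were called positive with that block and 2908 without it. Slides and groups are entangled, so the block cannot fully separate slide from group. Of 50 sets of 5 arrays (10 members in 5 groups), 0 held an array far enough from the others to be an outlier by Dixon's test.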

How the results depend on the processing

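Of the values of single members under other settings, 3186 kept their direction and side of the threshold or moved by less than the spread, 43 lost and 37 gained a call, 18 moved and 7 reversed. Cyp27a1 with ConA + BW245C against untreated at 3 hr turned to 0.23 with the slide as a fixed block. Slc10a1 turned to 0.28 (24 against 3 hr with BW245C), 0.31 (24 against 3 hr with vehicle) and 0.17 (ConA + vehicle against untreated at 24 hr) with quantile normalization. For that last comparison it turned to 0.070 with the slide as a fixed block, and for ConA + vehicle against untreated at 3 hr to -0.74 with the dimmer probe, added after the data were seen, and -0.33 with the mean of probes; beyond the probes' disagreement the cause was not tested. The number of members called between ConA + BW245C and ConA + vehicle at 3 hr was 1, and 2 with a filter on all arrays, but 0 with no filter, with only the groups compared, with quantile normalization and with the slide as a random block. Calls over all genes there were 1776 higher and 2547 lower, and 1563 and 2441 with that filter. They were 1500 and 2250 with no filter, and 751 and 1439 with only the groups compared. With quantile normalization they were 1764 and 2422, and with the random block 1041 and 1609. Against untreated at 3 hr with ConA + BW245C the number of members called was 5, and 3 with the slide as a fixed or a random block. Of all genes 4075 were called higher and 6393 lower in that comparison. The fixed block gave 2209 and 2970, and the random block 3110 and 4617. For the interaction 7 members were called, and 4 with the slide as a fixed block. Calls over all genes were 2908 positive and 1630 negative, and 505 and 423 with that block. At 24 hr the counts against untreated were 9 with ConA + BW245C and 10 with ConA + vehicle, and 7 and 8 with the slide as a fixed block, while the 7 between ConA + BW245C and ConA + vehicle stayed at 7. Of all genes, that block called 3155 lower with ConA + BW245C (5106 without it) and 4246 with ConA + vehicle (5911). Between the ConA groups it called 2302 higher and 2026 lower (2661 and 1352 without it). These counts of members use the brighter probe of Slc10a1. Leaving out 1 mouse at a time gave 7 to 8 called members between ConA + BW245C and ConA + vehicle at 24 hr and 0 to 3 at 3 hr. It gave 9 to 10 and 3 to 5 for ConA + BW245C against untreated at 24 and 3 hr, 10 and 4 to 6 for ConA + vehicle against untreated at 24 and 3 hr, 7 to 8 and 9 for 24 against 3 hr with BW245C and with vehicle, and 7 for the interaction. With a replicate block, Baat with ConA + BW245C against untreated at 3 hr lost its call (adjusted p = 0.0554), and no other member's call changed. A filter on all arrays left out Cyp7a1, whose dim arrays limit the size of its changes.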
